A study of Mus musculus with 10 samples.

Results

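The postsynaptic scaffold and CaMKII genes are 34 genes that encode the protein meshwork beneath excitatory synapses, the calcium/calmodulin-dependent protein kinase II subunits held in it, and proteins that couple it to receptors and to the actin of the spine. They were taken by gene symbol, and all 34 matched 1 of the 53447 genes listed in each library. RNA was measured in the whole cerebellum at postnatal day 21 (P21), with 5 control mice and 5 DscamKO mice and 1 library per mouse. The strain is labelled BALB/c, and per the study's methods the Dscam del17 stock was bred with BALB/cCrSlc mice. The DscamKO mice are homozygous for Dscam del17, an allele that arose spontaneously, lacks part of exon 17 and has lost its function, and are written Dscam del17/del17 or mutant from here on. The controls are their WT littermates, and both sexes were used. The mutation is carried by all cells of these mice and is not limited to the cerebellum or to Purkinje cells. DSCAM is a cell adhesion molecule of the immunoglobulin superfamily, and the study asked how it acts on synapses of Purkinje cells. The comparison below asks whether the RNA levels of the postsynaptic scaffold differed between the genotypes.

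At an excitatory synapse, MAGUK proteins bind glutamate receptors and adhesion molecules through PDZ domains and are linked by SAPAP proteins to SHANK proteins, which in turn bind HOMER and the actin cytoskeleton. HOMER connects the scaffold to metabotropic glutamate receptors and to the IP3 receptors of internal calcium stores. CaMKII is activated by calcium-bound calmodulin and phosphorylates receptors and scaffold proteins during synaptic plasticity. In the cerebellum, several of these proteins are known from the synapses that parallel fibres and climbing fibres form on Purkinje cell dendrites. There they take part in long-term depression and in the shaping of spines. RNA of the whole cerebellum does not show which cells a level comes from.

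Levels are in TPM, a unit meant to correct each gene for its length and each library for its size. It does not correct for the GC content of transcripts, with which levels varied among the libraries. Comparisons between different genes, and the shares within families, carry that limit. The unit does not record reads, and sequencing depth is therefore unknown. The listed TPM summed to between 684771 and 838532 per library, so the libraries were not on an equal scale. The main comparison used the values without rescaling. Control replicate 5 stood apart. It held 15206 TPM of mitochondrially encoded mRNA, where the others held 23124 to 44973 TPM, and 40.9% of all genes tested had their lowest value in it. It was the lowest library for 12 of the 32 members tested and the highest for 8. Among all genes tested, 11.8% had their highest value in it. As a check of the labels, Dscam lay at 6.29 to 9.05 TPM in the controls and at 3.05 to 5.42 TPM in the mutants without overlap, at a log2 fold change of -0.82 (adjusted p in limma = 0.779). The cerebellar markers were abundant, with a summed level of 3013 to 3609 TPM in control and 2955 to 3626 TPM in the mutant for 8 Purkinje cell genes and of 2313 to 2936 and 2327 to 2653 TPM for 9 granule cell genes. Of the granule cell genes, 8 had a log2 fold change below 0, and 7 of the Purkinje cell genes had one above 0. The share of all genes tested with a value below 0 was 44%. Of 6 markers of forebrain excitatory neurons, which use many of the same scaffold genes, Fezf2 was at 0 in every library, 4 were under 0.5 TPM in every library, and the sum was 1.76 to 3.98 TPM in control and 2.37 to 4.97 TPM in the mutant. Of 9 markers of brainstem and midbrain neurons, 4 were tested and all 4 had log2 fold changes above 0, and the sum was 3.40 to 10.8 TPM in control and 8.23 to 20.5 TPM in the mutant, with Hoxa5 and Hoxb5 at 0 in every library. All 8 markers of myelinating oligodendrocytes had log2 fold changes above 0, with sums of 5705 to 8275 TPM in control and 7213 to 8432 TPM in the mutant. In limma, 3 granule cell genes had an unadjusted p under 0.05 and were lower in the mutant. So did 3 oligodendrocyte genes and 3 brainstem and midbrain genes, which were higher in the mutant. Of 8 markers of Bergmann glia and astrocytes, 1 did, Hopx, which was lower in the mutant (log2 fold change -0.48). Of 6 interneuron markers, 1 did, Gad1, which was higher (log2 fold change 0.21). The share of all genes tested was 5.55%, and no marker reached an adjusted p of 0.05. The TPM of the genotypes did not overlap for Neurod1, Fat2, Mobp, Mog and Dbh, against 1.22% of all genes tested. The part of these markers in the results below was not tested. In RNA of a whole tissue, fewer cells of a type and less RNA per cell cannot be told apart.

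None of the 34 genes passed the test between the genotypes. The genotypes were compared with limma on log2(TPM + 0.1) over 17168 genes, and log2 fold changes are mutant minus control on that scale, which understates the change of genes of low level. Of the 32 members that passed the filter on low values, 0 reached an adjusted p of 0.05, the same as 0% of all genes, and their adjusted p ran from 0.779 to 0.996. At an unadjusted p under 0.05 there was 1 member, Pick1, against 5.55% of all genes in either direction and 3.26% in its direction, lower in the mutant. The log2 fold change was above 0 for 17 members and below 0 for 15, or 46.9% below, against 44% of all genes. The TPM of the genotypes overlapped for all 34 members, against 1.22% of all genes tested whose values did not overlap. The median log2 fold change of the members was 0.0039, beside 0.048 for all genes. For 26 of the 32 members the value was under 0.5 in size. For 22 of the 32 the 95% interval of the gene lay within -1 to 1 and held no change above 2-fold in this fit. For 13 members it lay within -0.5 to 0.5. The interval of the other 10 members included changes of more than 2-fold.

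**Figure D1:**
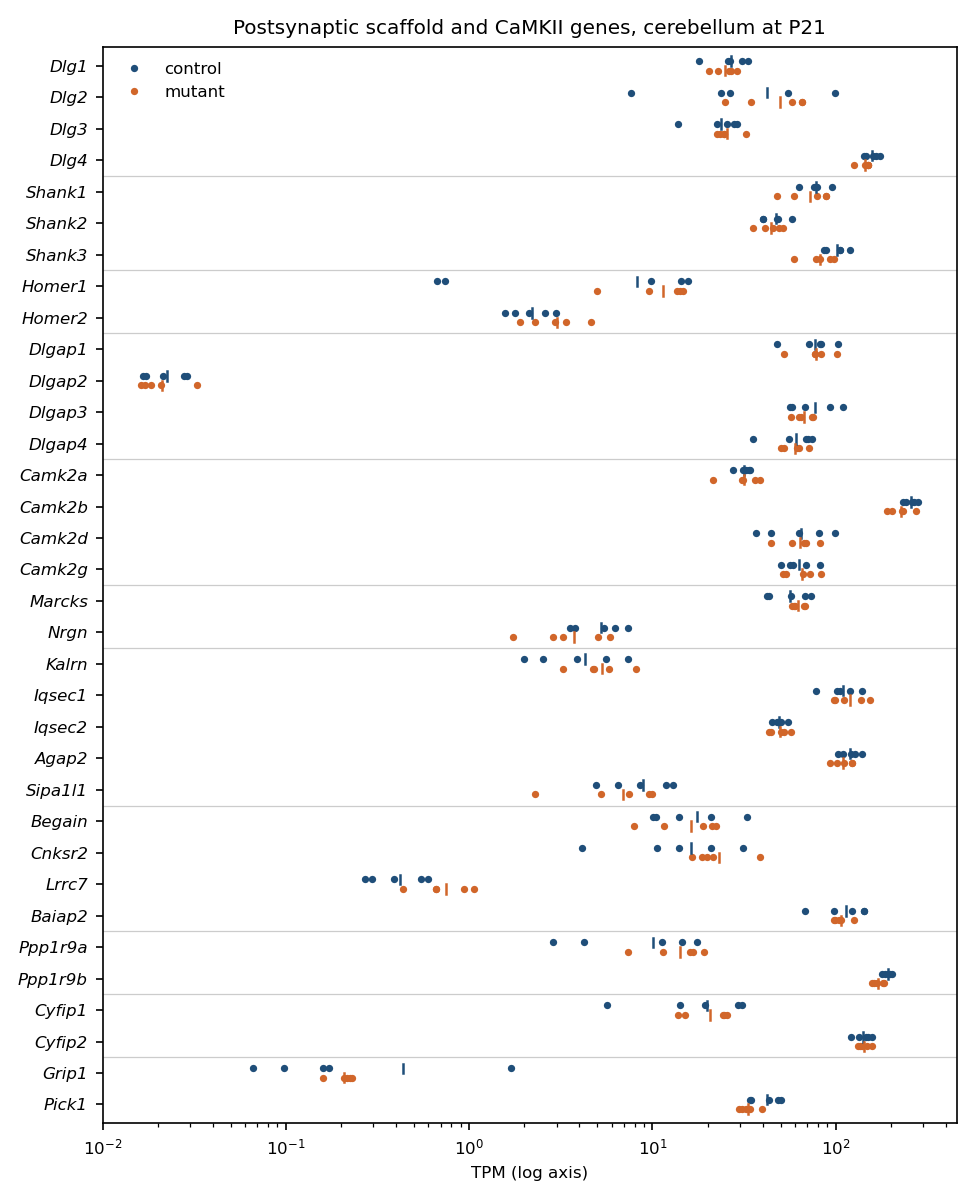
TPM of the 34 genes in each library on a log axis, with blue points for the 5 control mice, orange points for the 5 mutant mice and a short vertical line at each mean, and with grey lines between the groups of genes. Camk2b, at 234 to 282 TPM in control, is the highest and Dlgap2, at 0.0167 to 0.0287 TPM in control, the lowest, and the colours overlap in every row.

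The members covered a wide range of levels. A mean of at least 100 TPM was measured for 7 of them, 19 lay between 10 and 100 TPM, and 8 were under 10 TPM. Camk2b was the most abundant member, followed by Ppp1r9b, Dlg4 and Cyfip2. Camk2b lies on chromosome 11 from 5969644 to 6066362, Ppp1r9b on chromosome 11 from 94991035 to 95006899, Dlg4 on chromosome 11 from 70016942 to 70047522, Shank3 on chromosome 15 from 89499623 to 89560261, Pick1 on chromosome 15 from 79229173 to 79249484 and Homer1 on chromosome 13 from 93299635 to 93405129 (GRCm38). The lowest levels were those of Grip1 and Dlgap2, the only ones that the filter removed.

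The 6 sequences that follow are shown because the variation of the members among the libraries ran with the GC content of their transcripts. They are the first 90 coding bases of the 3 members of lowest and the 3 of highest GC content in the transcript with the longest coding sequence, with G and C in capitals and A and T in lower case. The transcripts are Homer1-202 (37.8% GC over the whole transcript), Camk2d-228 (43.0%), Cnksr2-201 (43.7%), Agap2-201 (63.0%), Begain-204 (63.6%) and Dlgap3-203 (63.9%) of the GENCODE M21 annotation on GRCm38. The contrast between the sets lies over whole transcripts, and these short stretches show it only in part. Over the 90 bases, Camk2d has 57.8% GC and Begain 55.6%, the reverse of their order over whole transcripts.
Homer1: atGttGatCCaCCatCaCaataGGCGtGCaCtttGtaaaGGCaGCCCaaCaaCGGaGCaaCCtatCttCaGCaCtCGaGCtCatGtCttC
Camk2d: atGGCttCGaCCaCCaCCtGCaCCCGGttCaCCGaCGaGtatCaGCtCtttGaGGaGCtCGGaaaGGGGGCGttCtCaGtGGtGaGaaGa
Cnksr2: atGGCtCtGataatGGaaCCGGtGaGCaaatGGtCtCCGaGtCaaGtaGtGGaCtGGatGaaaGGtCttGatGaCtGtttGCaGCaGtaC
Agap2: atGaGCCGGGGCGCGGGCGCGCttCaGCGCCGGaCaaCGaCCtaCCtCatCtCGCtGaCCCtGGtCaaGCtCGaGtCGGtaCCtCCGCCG
Begain: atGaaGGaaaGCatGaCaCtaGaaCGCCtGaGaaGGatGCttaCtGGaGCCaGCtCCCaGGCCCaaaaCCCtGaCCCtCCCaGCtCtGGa
Dlgap3: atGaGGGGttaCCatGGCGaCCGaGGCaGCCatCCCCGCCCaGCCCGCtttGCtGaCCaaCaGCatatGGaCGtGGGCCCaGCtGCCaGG

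Among the CaMKII subunits, Camk2b carried most of the RNA. Its level was 268, 234, 282, 262 and 243 TPM in control replicates 1 to 5 and 204, 275, 230.1, 191 and 234 TPM in mutant replicates 1 to 5. Mutant replicates 1, 3 and 4 lay below every control, and mutant replicate 2 was above all but 1 of them. The means were 258 ± 19.2 TPM (SD, n = 5) in control and 227 ± 32.3 TPM (SD, n = 5) in the mutant, with a log2 fold change of -0.19 (95% interval -0.43 to 0.038, adjusted p = 0.779 in limma, and p = 0.111 in the exact two-sided permutation test of the TPM). After adjustment for GC content the value was -0.065. Camk2b encodes the beta subunit, which binds F-actin and is the prominent form in the cerebellum. Camk2b made up 61.9 ± 4.92% of the summed CaMKII TPM in control and 58.5 ± 6.05% in the mutant, and it was the highest of the 4 genes in all 10 libraries.

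Camk2a encodes the alpha subunit, the main form of the forebrain. It was measured at 33.9, 33.5, 27.4, 31.3 and 32.3 TPM in the controls and at 36.1, 38.5, 21.5, 31.0 and 31.3 TPM in the mutants, each in the order of replicates 1 to 5. It was the lowest of the 4 genes in all 10 libraries, with 7.62 ± 0.904% of the CaMKII TPM in control and 8.12 ± 1.24% in the mutant. Its means were 31.7 ± 2.63 and 31.7 ± 6.53 TPM, and its log2 fold change was -0.023 (95% interval -0.37 to 0.32). Camk2d, the broadly expressed delta subunit, had 81.2, 99.5, 62.9, 44.5 and 36.6 TPM in control and 69.3, 57.9, 44.5, 81.7 and 66.8 TPM in the mutant. The lowest of these was Control replicate 5, and all 5 mutant values lay within the control range. Camk2g, the gamma subunit, had 69.0, 58.2, 56.3, 82.3 and 50.4 TPM in control and 66.5, 82.7, 51.4, 72.5 and 53.9 TPM in the mutant. The levels of Camk2d and Camk2g did not keep an order, since Camk2d was the higher one in 6 of 10 libraries. The log2 fold changes were 0.047 (95% interval -0.53 to 0.62) for Camk2d and 0.047 (95% interval -0.32 to 0.41) for Camk2g.

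**Figure D2:**
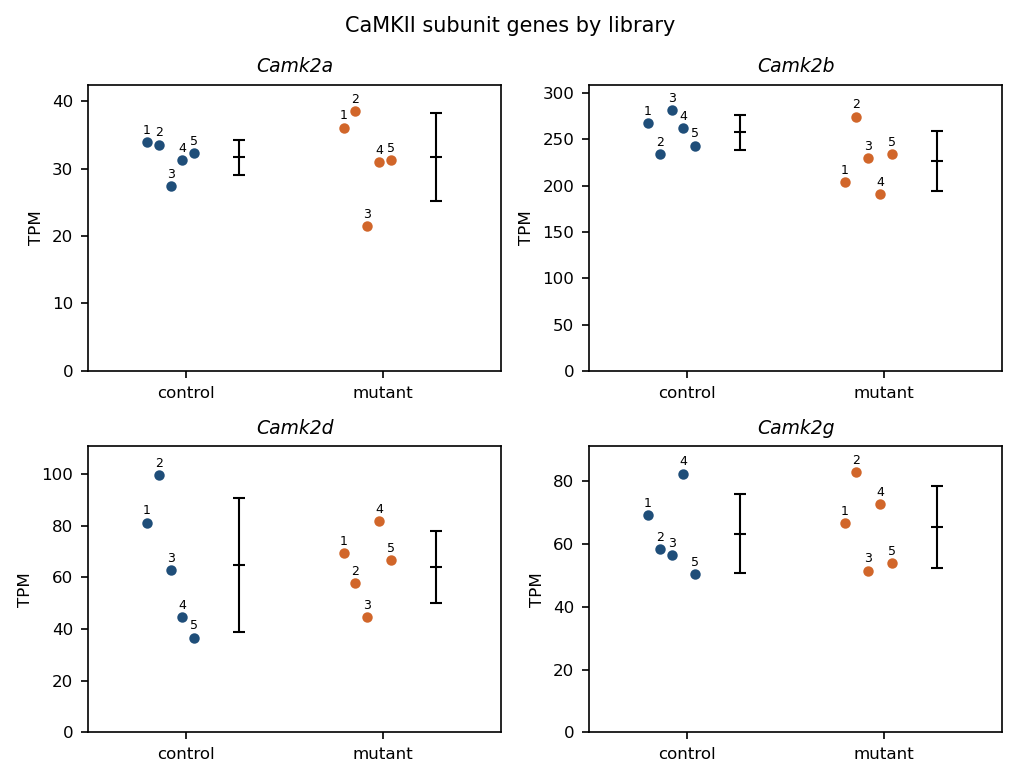
TPM of the 4 CaMKII genes by genotype, with 1 point per mouse, the replicate number above it and the mean and SD (n = 5) beside the points. Camk2b spans 191 to 275 TPM in the mutant and 234 to 282 TPM in control, above the other 3 genes in every library.

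Marcks and Nrgn encode substrates of protein kinase C that also bind calmodulin. Marcks, which crosslinks actin at the membrane, had 67.8, 73.5, 42.1, 56.7 and 43.0 TPM in control and 66.9, 68.2, 60.3, 59.4 and 58.1 TPM in the mutant. The mutant values lay within the control range. The means were 56.6 ± 14.2 and 62.6 ± 4.66 TPM (log2 fold change 0.18, 95% interval -0.18 to 0.53). Nrgn encodes neurogranin, a calmodulin-binding protein of forebrain spines, and was low, at 5.28 ± 1.63 TPM in control and 3.75 ± 1.67 TPM in mutants (log2 fold change -0.55, 95% interval -1.34 to 0.24). Pcp4, the Purkinje cell protein with the same kind of calmodulin-binding motif, was a median of 438 times higher than Nrgn over the 10 libraries.

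Of the MAGUK scaffolds, Dlg4, which encodes PSD-95, was the highest in all 10 libraries, with 64.4 ± 11.8% of the summed MAGUK TPM in control and 59.0 ± 4.0% in the mutant. Its level was 147, 144, 160.2, 175 and 166 TPM in control and 149.7, 149.6, 149.6, 125 and 145 TPM in the mutant. Mutant replicate 4 was below every control, and the others lay within the control range. The means were 158 ± 13.0 and 144 ± 10.6 TPM, with a log2 fold change of -0.14 (95% interval -0.33 to 0.057, adjusted p = 0.779 in limma, exact permutation p = 0.111). After adjustment for GC content it was -0.054. Dlg1, which encodes SAP97, had 26.8 ± 5.74 and 25 ± 3.41 TPM (log2 fold change -0.084, 95% interval -0.47 to 0.30). The Dlg1 value was -0.30 after adjustment for GC content, where it was the only member with an unadjusted p under 0.05, and -0.31 with mitochondrial mRNA as covariate. Dlg3, which encodes SAP102, had 23.7 ± 6.09 and 25.5 ± 3.91 TPM (log2 fold change 0.14).

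Dlg2 encodes PSD-93, a MAGUK found in Purkinje cells, and is described in full because of its spread, which was seen first. It had 99.0, 26.5, 23.7, 54.8 and 7.60 TPM in control and 34.4, 65.7, 65.3, 57.6 and 24.9 TPM in the mutant. The controls spanned a factor of 13.0 and enclosed all 5 mutant values, which spanned a factor of 2.64. The log2 fold change was 0.60 (95% interval -0.65 to 1.85), and it was 0.10 without Control replicate 5.

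All 3 SHANK genes had log2 fold changes below 0, and none passed the test. Shank3 was the highest of them in 9 of 10 libraries, at 85.9, 88.8, 106, 106 and 119.7 TPM in control and 98.5, 78.0, 82.5, 59.5 and 92.8 TPM in the mutant. The lowest 3 mutant values lay below every control, and the highest 2 lay within the control range. The means were 101 ± 13.9 TPM (SD, n = 5) and 82.3 ± 15.1 TPM (SD, n = 5), with a log2 fold change of -0.31 (95% interval -0.63 to 0.011, adjusted p = 0.779 in limma, and p = 0.0714 in the exact permutation test). Shank1 had 78.4 ± 11.4 and 72.5 ± 18.2 TPM (log2 fold change -0.14), and Shank2 had 47.0 ± 7.37 and 44.5 ± 6.38 TPM (log2 fold change -0.076). After adjustment for GC content, Shank3 was at -0.15 and Shank1 at 0.010.

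SAPAP proteins join the guanylate kinase domain of PSD-95 to SHANK. Dlgap1 had the highest mean of the 4 genes, with 103, 71.2, 47.7, 82.9 and 82.4 TPM in control and 102, 76.7, 77.3, 52.3 and 82.7 TPM in the mutant. The mutant values fell inside the control range, and the means were 77.5 ± 20.3 and 78.2 ± 17.8 TPM (log2 fold change 0.026, 95% interval -0.44 to 0.49). Dlgap3 followed at 77.1 ± 23.5 and 66.9 ± 7.78 TPM (log2 fold change -0.16) and Dlgap4 at 61.1 ± 15.9 and 59.8 ± 8.73 TPM (log2 fold change 0.0053). These 3 paralogs did not keep an order, as Dlgap1 was the highest in 6 libraries, Dlgap3 in 3 and Dlgap4 in 1. Dlgap2 was near 0 in every library, at 0.0167 to 0.0287 TPM in control and 0.0163 to 0.0327 TPM in the mutant, and was not tested.

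The HOMER adaptors had the largest value among the members. Homer1 was at 15.6, 14.3, 0.739, 9.79 and 0.666 TPM in control and at 14.1, 14.7, 9.57, 5.01 and 13.5 TPM in the mutant. Control replicates 3 and 5 were under 1 TPM and apart from all other libraries, and the other 3 controls lay within or above the mutant range. The log2 fold change was 1.32 (95% interval -0.59 to 3.23, adjusted p = 0.779 in limma, exact permutation p = 0.429 on the TPM), and it was 0.70 without Control replicate 5 and -0.29 without Control replicates 3 and 5. Homer2 had 2.21 ± 0.581 and 3.02 ± 1.05 TPM (log2 fold change 0.41, 95% interval -0.32 to 1.13). Homer3, the HOMER gene typical of Purkinje cells and not a member here, had 411 ± 67.1 TPM in control and 389 ± 31.0 TPM in the mutant, was above Homer1 in all 10 libraries, and had a log2 fold change of -0.066 (95% interval -0.33 to 0.20).

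**Figure D3:**
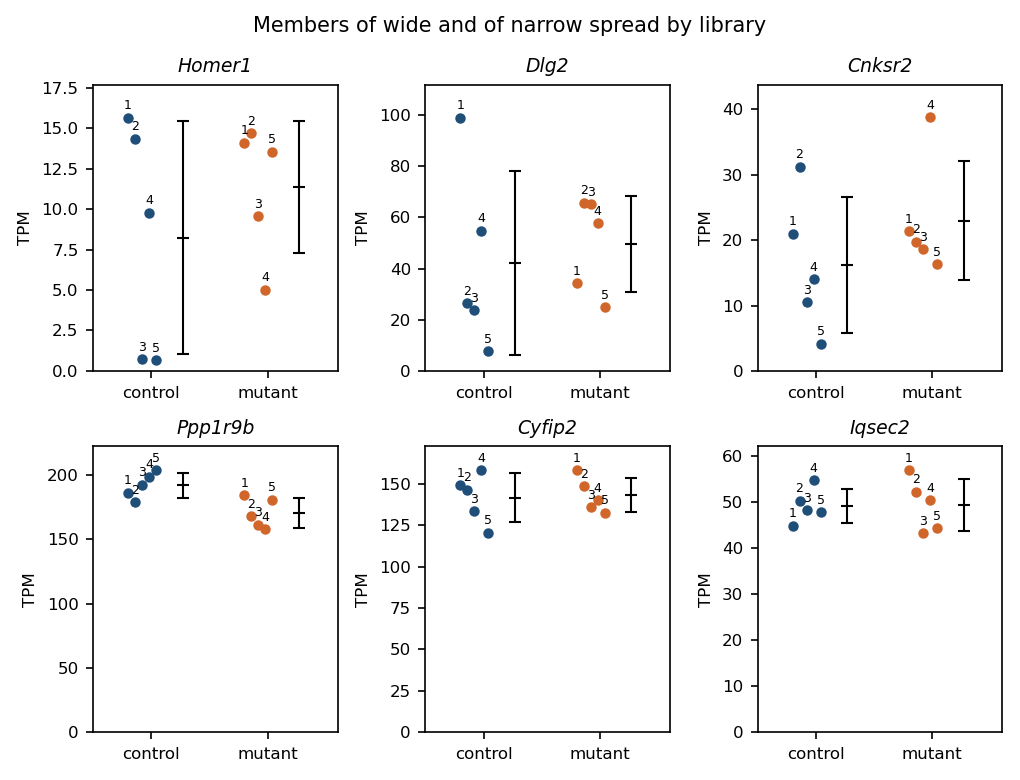
TPM of the 3 members tested with the largest ratio of highest to lowest library (Homer1, Dlg2, Cnksr2) and the 3 with the smallest (Ppp1r9b, Cyfip2, Iqsec2), with 1 point per mouse, its replicate number and the mean and SD (n = 5). Control replicate 5 is the lowest library for each of the first 3 genes, and Homer1 is under 1 TPM in Control replicates 3 and 5.

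The remaining groups act on the actin of the spine and on small GTPases. The neurabins bind F-actin and protein phosphatase 1. Ppp1r9b, which encodes spinophilin, had 186, 179, 192, 199 and 204 TPM in control and 184, 168, 162, 158 and 181 TPM in the mutant. The lowest 3 mutant values lay below every control, and the highest 2 lay within the control range. The means were 192 ± 9.91 TPM (SD, n = 5) and 171 ± 11.6 TPM (SD, n = 5), and the log2 fold change was -0.17 (95% interval -0.34 to 0.0026, adjusted p = 0.779 in limma). In the exact permutation test of its TPM, Ppp1r9b had p = 0.0317, unadjusted, where the smallest p that 5 against 5 libraries allow is 0.0079. After adjustment for GC content its log2 fold change was -0.011. Ppp1r9b accounted for 94.97 ± 3.25% of the neurabin TPM in control and 92.3 ± 2.77% in the mutant. Ppp1r9a, which encodes neurabin, was at 10.1 ± 6.37 and 14.1 ± 4.70 TPM (log2 fold change 0.71, 95% interval -0.35 to 1.78). The Ppp1r9a value was 0.34 without Control replicate 5 and 0.088 with mitochondrial mRNA as covariate.

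The CYFIP proteins are part of the WAVE complex, which starts branched actin. Cyfip2 had 149, 146, 133, 158 and 121 TPM in control and 158, 148, 136, 139.9 and 133 TPM in the mutant, with nearly the same highest value in both genotypes. Its means were 142 ± 14.7 and 143 ± 10.3 TPM, with a log2 fold change of 0.018 (95% interval -0.19 to 0.23). Cyfip1 was lower, at 19.8 ± 10.5 and 20.7 ± 5.75 TPM (log2 fold change 0.23, 95% interval -0.67 to 1.14). Its exons share 1316 bases with Nipa2 on the opposite strand, and since the strand setting behind the TPM is not stated, reads of these genes may not be separated.

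Agap2, Iqsec1, Iqsec2, Kalrn and Sipa1l1 regulate small GTPases. Agap2, a GTPase-activating protein for Arf, had 110.2, 104, 122, 127 and 139.9 TPM in control and 123, 110.4, 93.1, 101 and 123 TPM in the mutant, with wide overlap (means 120.4 ± 14.2 and 110.2 ± 13.3 TPM, log2 fold change -0.13, 95% interval -0.38 to 0.12). Iqsec1 and Iqsec2 encode exchange factors for Arf. Iqsec1 had 109 ± 22.8 and 119.7 ± 25 TPM (log2 fold change 0.14) and was above Iqsec2, at 49.2 ± 3.66 and 49.5 ± 5.64 TPM (log2 fold change 0.0025), in all 10 libraries. Kalrn, an exchange factor for Rac, had 4.26 ± 2.2 and 5.32 ± 1.79 TPM (log2 fold change 0.41), and Sipa1l1, a GTPase-activating protein for Rap, had 8.93 ± 3.40 and 6.92 ± 3.21 TPM (log2 fold change -0.44, 95% interval -1.35 to 0.46). The Sipa1l1 value was -0.099 without DscamKO replicate 5 and -0.85 with mitochondrial mRNA as covariate.

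Of the other scaffold proteins, Baiap2, which encodes the Rac effector IRSp53, was the most abundant, at 67.7, 97.5, 143, 143 and 122 TPM in control and 125, 107, 98.3, 99.1 and 105 TPM in the mutant. The mutant values lay within the control range (means 114 ± 32.1 and 107 ± 11.0 TPM, log2 fold change -0.054, 95% interval -0.47 to 0.36). Cnksr2, a scaffold of Ras signalling that binds PSD-95, had 21, 31.2, 10.5, 14.0 and 4.15 TPM in control and 21.4, 19.8, 18.6, 38.8 and 16.4 TPM in the mutant. Control replicate 5 was the lowest and mutant replicate 4 the highest. The log2 fold change of Cnksr2 was 0.72 (95% interval -0.28 to 1.72, adjusted p = 0.779 in limma, exact permutation p = 0.317), and -0.067 once mitochondrial mRNA was a covariate. Begain, which binds the guanylate kinase domain of PSD-95, had 17.6 ± 9.47 and 16.3 ± 6.26 TPM (log2 fold change -0.060). Lrrc7, which encodes densin, a binding partner of CaMKII, was low at 0.419 ± 0.146 and 0.750 ± 0.248 TPM. Its log2 fold change of 0.70 had a 95% interval of -0.31 to 1.72, and it was the other member besides Ppp1r9b with an exact permutation p under 0.05, at p = 0.0397 unadjusted. These 2 of 34 members stand beside 6.11% of all genes tested that had a permutation p under 0.05.

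Pick1 and Grip1 encode PDZ proteins that bind the GluA2 subunit of AMPA receptors, and PICK1 is needed for long-term depression in Purkinje cells. Pick1 had 48.4, 43.1, 33.9, 34.7 and 50.4 TPM in control and 39.6, 29.7, 30.8, 32.3 and 34 TPM in the mutant. The lowest 3 mutant values lay below every control, and the highest 2 lay within the control range. The means were 42.1 ± 7.59 TPM (SD, n = 5) and 33.3 ± 3.89 TPM (SD, n = 5). Its log2 fold change of -0.33 (95% interval -0.64 to -0.011) had the smallest p of the members, 0.0439 unadjusted and 0.779 adjusted over all genes in limma, and p = 0.0635 in the exact permutation test. The value was below 0 in all 20 alternatives, from -0.40 to -0.23, but its unadjusted p was under 0.05 in only 10 of them and reached 0.145 after adjustment for GC content. Grip1 was at 1.69, 0.172, 0.0976, 0.160 and 0.0658 TPM in control and 0.229, 0.225, 0.214, 0.207 and 0.159 TPM in the mutant, below the level needed for the test. Control replicate 1 was the only library above 1 TPM.

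**Figure D4:**
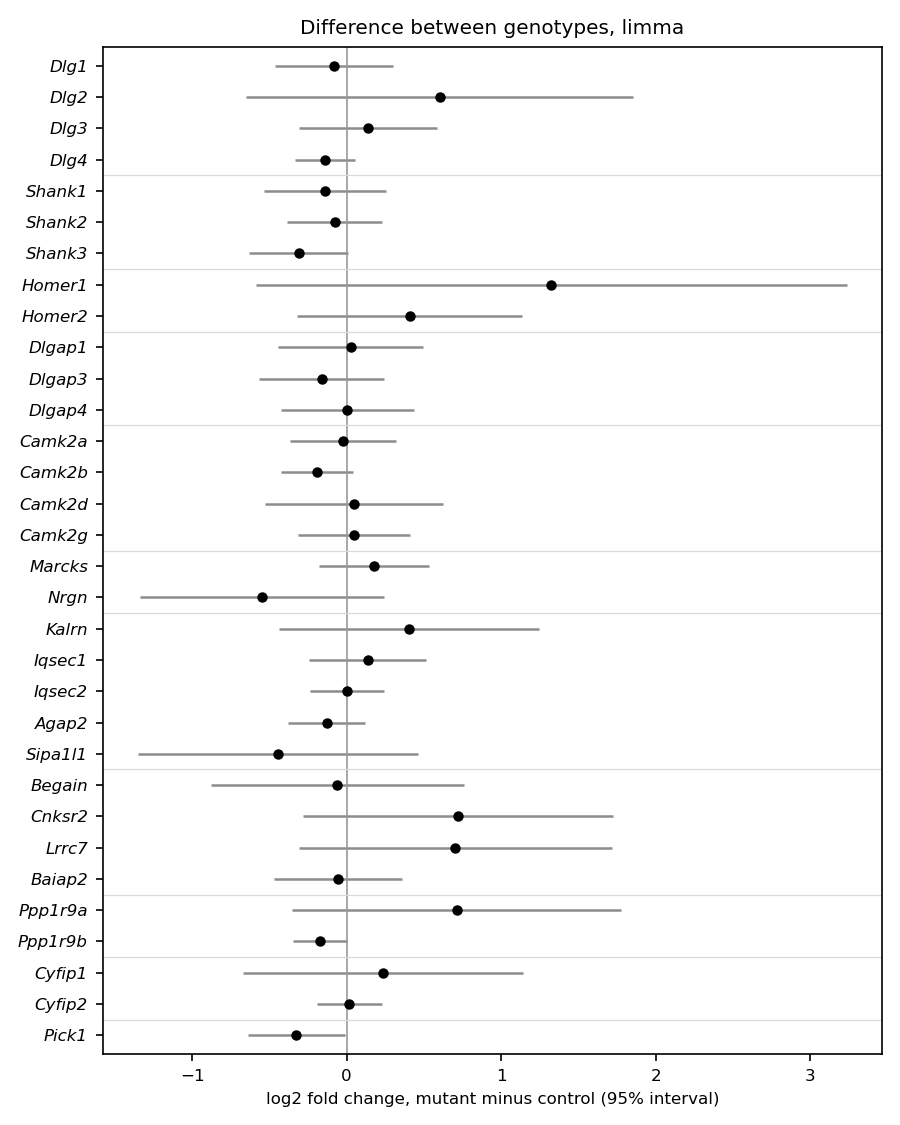
Log2 fold change (mutant minus control) of the 32 members tested, with its 95% interval from limma and grey lines between the groups of genes. The intervals of all members but Pick1 (-0.64 to -0.011) include 0, and that of Homer1 (-0.59 to 3.23) is the widest.

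Many members varied widely within a genotype. The highest control was over 2 times the lowest for 16 of the 34 members, and the highest mutant over 2 times the lowest for 11. The spread among controls ran with base composition. Across the 32 members tested, the Spearman correlation between transcript GC content and the log2 level in Control replicate 5 relative to the mean of the other controls was 0.86, and for 13538 protein-coding genes it was 0.53. Control replicate 5 was not alone in this. With each member's log2 level taken relative to its mean over all 10 libraries, the correlation was -0.63, -0.57, 0.42, 0.18 and 0.87 in control replicates 1 to 5. In mutant replicates 1 to 5 it was -0.13, -0.28, -0.48, -0.52 and 0.019. Genes of 1 library are not independent replicates, so these values are descriptions without a p.

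The genotype difference ran with GC content in the direction opposite to that of Control replicate 5. The Spearman correlation between GC content and log2 fold change was -0.69 over the 32 members and -0.50 over the protein-coding genes, and both correlations use the same control libraries. Below the members' median GC content of 54.7%, 14 of 16 members had a log2 fold change above 0 and 15 of 16 were lower in Control replicate 5 than in the mean of the other controls. Above it, 3 of 16 members had a log2 fold change above 0 and 3 of 16 were lower in Control replicate 5. Among protein-coding genes, 67.4% of those below this GC content and 28.7% of those above it had a log2 fold change above 0. Over the members, the correlation with the log2 fold change was -0.28 without Control replicate 5, 0.18 without Control replicates 3 and 5, 0.23 with mitochondrial mRNA as a covariate and -0.21 after adjustment for GC content.

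**Figure D5:**
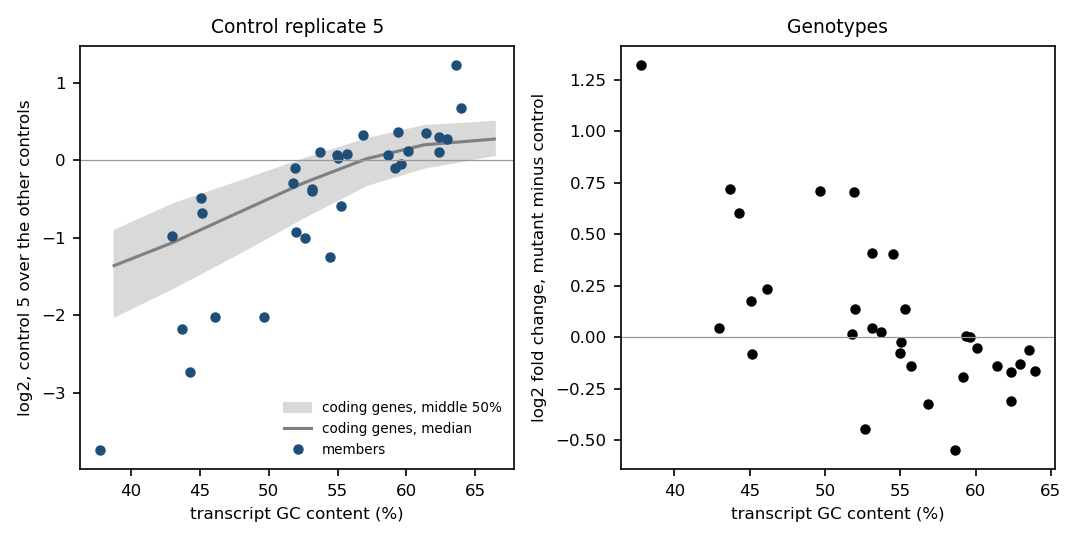
On the left, the log2 level in Control replicate 5 relative to the other controls against transcript GC content (%) for the 32 members (points) and the protein-coding genes (line for the median, grey band for the middle 50%, in bins of at least 20 genes), and on the right the log2 fold change of the members between the genotypes against the same axis. The points climb on the left (Spearman 0.86) and descend on the right (-0.69).

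The split of the members into 17 above and 15 below 0 moved with these libraries, and the split of all genes moved too. The share of members below 0 was 46.9%, against 44% of all genes. Without Control replicate 5 it was 62.5% (12 above, 20 below), against 56.0% of all genes. Without Control replicates 3 and 5 it was 71.9% (9 and 23), against 66.3%, and with mitochondrial mRNA as covariate 71.9% (9 and 23), against 67.6%. With array weights it was 68.8% (10 and 22), against 54.6%, and after adjustment for GC content 34.4% (21 and 11), against 50.2%. Rescaling of the listed TPM to an equal sum gave 56.25% (14 and 18), against 46.2%. A sign kept in all 20 alternatives was found for 12 of the 32 members. Shank3, Camk2b, Dlg4, Ppp1r9b and Pick1, with log2 fold changes below 0, lie above the median GC content, and Homer1, Dlg2 and Cnksr2, with values above 0, lie below it. Whether base composition of the libraries has a part in single values was not tested.

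Other genes of the same pathways were counted in 3 further lists. Of these 53 genes all were tested, 33 had a log2 fold change above 0, 20 below, and 0 passed the test, with 2 at an unadjusted p under 0.05. Their median log2 fold change was 0.077, beside 0.048 for all genes tested. Among all genes tested, 44% had a value below 0 and 5.55% had an unadjusted p under 0.05 in limma. Among 25 other postsynaptic density and spine genes, 13 were above 0 and 12 below. The most abundant were Homer3 and Dynll2, a dynein light chain that binds SAPAP, at 345 ± 38.4 and 376 ± 10.1 TPM (log2 fold change 0.13). The smallest p values were those of Sipa1l2, a relative of Sipa1l1, at 20.5 ± 9.22 and 30.5 ± 4.02 TPM (log2 fold change 0.68, adjusted p = 0.779 in limma), and of Dlg5, at 19.8 ± 6.88 and 13.9 ± 1.51 TPM (log2 fold change -0.46).

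Among 21 other CaM kinase and calmodulin pathway genes, 14 were above 0 and 7 below. Pcp4 had 1667 ± 309.7 and 1921 ± 191 TPM (log2 fold change 0.22), and Calm2, 1 of the calmodulin genes, had 1304 ± 348 and 1491 ± 107 TPM (log2 fold change 0.23). Pcp4 lies on chromosome 16 from 96467606 to 96525793, near the mutated gene Dscam, from 96590840 to 97170752 (GRCm38). Farther from Dscam on chromosome 16 lie Gap43 and the members Dlg1 and Kalrn. Whether a position on the chromosome of Dscam has a part in these values was not tested. Gap43, a calmodulin-binding growth cone protein, had 264 ± 39.6 TPM in control and 181 ± 33.8 TPM in mutants (log2 fold change -0.55 with a 95% interval of -0.87 to -0.24, limma adjusted p = 0.779). Ppp3r1, the regulatory subunit of calcineurin, had 98.3 ± 38.7 and 129.7 ± 11.3 TPM (log2 fold change 0.49). Among 7 other genes of the WAVE complex, 6 were above 0 and 1 below, with Brk1 at 153 ± 31.0 and 148 ± 6.68 TPM (log2 fold change -0.023), Nckap1 at 0.22, Abi1 at 0.29 and Wasf2 at 0.33 on the log2 scale.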

How the data were processed

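RNA from the cerebella of 5 control and 5 DscamKO mice at P21 was made into directional libraries and sequenced on an Illumina NovaSeq by the authors, with 1 library per mouse. Per the methods and the submitters' processing notes, reads were trimmed, aligned to GRCm38 with HISAT2 and quantified with StringTie. The deposited values are TPM per Ensembl gene, computed by the authors, a unit meant to account for library size and transcript length. Their listed sums differed among the libraries, and the main fit used the values without rescaling. The annotation release and strand setting of the TPM are not given in the sources used here. TPM keeps no read number, so the depth is unknown. Counts from HTSeq and a DESeq2 comparison, both named by the authors, were not analysed here.

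Symbols, positions and transcript GC content came from the GENCODE M21 annotation on GRCm38, and 105 listed identifiers had no entry there. Genes that reached 0.5 TPM in 5 or more of the 10 libraries were kept, 0.1 TPM was added, and log2 values were compared in limma (version 3.58.1, R version 4.3.3) with a variance trend, no covariates and Benjamini-Hochberg adjustment over all genes tested (threshold 0.05). Single genes were also compared by an exact two-sided permutation test of mean TPM (scipy version 1.17.1). The members, gene lists and alternatives were chosen with earlier results of these data known. Values per library are given for the member of highest mean in each group, the 6 of smallest p and the 4 CaMKII genes, and of each further list the 2 genes of highest mean and the 2 of smallest p are named. Dlg2 and Grip1 were given in full after their values were seen. Further marker lists, of 6 interneuron genes (5 above 0, 1 below), 8 of Bergmann glia and astrocytes (3 and 5) and 4 of choroid plexus (2 and 2), were also measured, and 0 of their genes passed the threshold. The limma test was tried on simulated data, drawn independently for each gene and library. The simulated data lacked the shared differences among libraries described above, so the trial does not show how the test handles them. Alternatives were another added value, other filters and scalings, the replicate block, a mitochondrial mRNA covariate, array weights, libraries left out, and, chosen after seeing the data, an adjustment of log2 values for transcript GC content by a lowess curve (span 0.3) in each library.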

Additional observations from a re-analysis of the deposited data

Results flagged for a closer look

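In each genotype the 5 values of every member, of the members' mean log2 level and of mitochondrial mRNA were examined for a single library far from the other 4, by the gap to its nearest neighbour over the whole range. Of 72 such groups 5 stood out, where 3.6 are expected at 1 in 20. Dlg3 was 32.3 TPM in mutant replicate 5, against 24.6 TPM in the next library. Dlg4 was 125 TPM in mutant replicate 4, against 145 TPM in the next library. Cnksr2 was 38.8 TPM in mutant replicate 4, against 21.4 TPM in the next library. Grip1 was 1.69 TPM in Control replicate 1, against 0.172 TPM in the next library. Dlgap2 was 0.0327 TPM in mutant replicate 2, against 0.0209 TPM in the next library, both close to 0.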

How the results depend on the processing

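Over 20 alternatives, 10 of which each leave out 1 library, 0 members passed the threshold, the smallest adjusted p of a member was 0.523, and 0 of the 53 further pathway genes passed. Over all genes, 0 passed in each alternative except without DscamKO replicate 4, where 1 did. At an unadjusted p under 0.05 there were 953 genes, but 1586 without Control replicate 1 and 1634 without Control replicate 2, and between 0 and 3 members when 1 library was left out, with 0 members also with mitochondrial mRNA as covariate. The median of all genes, 0.048, was -0.10 with mitochondrial mRNA as covariate and -0.094 without Control replicates 3 and 5, so values in these settings are to be read against that shift. The median of the members was -0.067 and -0.095 there. The samples share replicate numbers, but same-numbered libraries did not deviate together (correlations of 0.0079 to 0.098), and only replicate 5 was best correlated with its own number in both genotypes. With the replicate block, 0 members passed, the median of the members was 0.0039 and 1 member, Pick1, had an unadjusted p under 0.05. Pick1 was under it in 10 of the 20 alternatives and not in the other 10 (mitochondrial mRNA as covariate, adjustment for GC content, array weights, and without Control replicate 1, 2 or 5 or DscamKO replicate 2, 3, 4 or 5). In 20 of the 32 members the sign turned in at least 1 alternative, and the log2 fold changes that turned are given here. With mitochondrial mRNA as covariate, they were -0.30 for Dlg2, -0.10 for Dlg3, 0.0027 for Shank2, -0.041 for Homer1, -0.051 for Dlgap1, 0.087 for Dlgap3, -0.30 for Camk2d, -0.091 for Camk2g, -0.053 for Marcks, -0.085 for Kalrn, -0.010 for Iqsec2, 0.28 for Begain, -0.067 for Cnksr2, 0.14 for Baiap2, -0.28 for Cyfip1 and -0.082 for Cyfip2. Without Control replicates 3 and 5, they were -0.18 for Dlg2, -0.12 for Dlg3, 0.050 for Shank2, -0.29 for Homer1, -0.15 for Dlgap1, -0.18 for Camk2d, -0.10 for Camk2g, -0.072 for Marcks, -0.088 for Kalrn, -0.019 for Iqsec2, 0.071 for Begain, 0.12 for Baiap2, -0.22 for Cyfip1 and -0.084 for Cyfip2. With array weights, they were -0.043 for Dlg3, -0.0045 for Dlgap1, -0.051 for Camk2d, -0.070 for Camk2g, -0.029 for Iqsec2, -0.15 for Cyfip1 and -0.047 for Cyfip2. After adjustment for GC content, they were 0.010 for Shank1, 0.014 for Dlgap3, 0.052 for Camk2a, -0.25 for Camk2d, -0.040 for Marcks, 0.038 for Agap2, 0.11 for Begain and 0.085 for Baiap2. After rescaling of the listed TPM to an equal sum, they were -0.013 for Dlgap4, -0.016 for Iqsec2 and -0.00079 for Cyfip2. After quantile normalization, it was 0.00027 for Baiap2. The rescaling to an equal sum lowered every member by almost the same amount (-0.019 to -0.013), so the turns under rescaling follow from values near 0, and the count of 20 is the same without it. With 1 library left out, the lowest and highest values of the 12 members whose sign turned in that way were -0.045 to 0.22 for Dlg3, -0.13 to 0.0039 for Shank2, -0.14 to 0.16 for Dlgap1, -0.18 to 0.090 for Dlgap4, -0.10 to 0.11 for Camk2a, -0.14 to 0.22 for Camk2d, -0.043 to 0.15 for Camk2g, -0.050 to 0.048 for Iqsec2, -0.22 to 0.20 for Begain, -0.23 to 0.039 for Baiap2, -0.16 to 0.45 for Cyfip1 and -0.039 to 0.059 for Cyfip2. The 12 members whose sign turned in no alternative had lowest and highest values of -0.31 (mitochondrial mRNA) to -0.00098 (without Control replicate 2) for Dlg1, -0.17 (without Control replicate 2) to -0.054 (GC content) for Dlg4, -0.38 (without DscamKO replicate 1) to -0.15 (GC content) for Shank3, 0.18 (without Control replicates 3 and 5) to 0.55 (without DscamKO replicate 4) for Homer2, -0.27 (without DscamKO replicate 2) to -0.065 (GC content) for Camk2b, -0.73 (without DscamKO replicate 3) to -0.31 (without DscamKO replicate 1) for Nrgn, 0.019 (without Control replicate 5) to 0.23 (without Control replicate 3) for Iqsec1, -0.85 (mitochondrial mRNA) to -0.099 (without DscamKO replicate 5) for Sipa1l1, 0.30 (1 TPM added) to 0.86 (without DscamKO replicate 1) for Lrrc7, 0.088 (mitochondrial mRNA) to 0.99 (without Control replicate 2) for Ppp1r9a, -0.20 (without DscamKO replicate 1) to -0.011 (GC content) for Ppp1r9b and -0.40 (without Control replicate 3) to -0.23 (GC content) for Pick1. TPM holds no read number, so what depth limits cannot be stated.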
